A study of Homo sapiens with 8 samples.

Results

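The response of drug-sensitive rhabdoid tumor cells to dasatinib and pazopanib was described by comparing 2 arrays of parental A204 cells, 1 in 5 µM dasatinib and 1 in 5 µM pazopanib, with the 2 arrays of parental A204 cells whose labels give no drug. These 4 arrays were chosen by their labels, out of 8 in the series, and all 48107 probes of each were used. A204 is an established line from a malignant rhabdoid tumor, a childhood cancer. It has lost SMARCB1, which codes for part of the SWI/SNF complex that remodels chromatin, and all groups share this loss. The other 4 arrays hold parental cells in 5 µM sunitinib and the sublines resistant to dasatinib, pazopanib or sunitinib, each in 5 µM of its own drug. All 4 entered the fit. The resistant arrays, taken there as 1 group although they are 3 sublines in 3 different drugs, add to its estimate of the spread, while the single sunitinib-treated parental array does not. Their values at the same genes are also given. The study describes the parental control of its expression data as cells in DMSO, the drug solvent, while the labels name no solvent. How long the drugs were applied before RNA was taken is not given in the sources used here.

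Dasatinib and pazopanib are tyrosine kinase inhibitors (TKIs). Both block the PDGF receptors and KIT, receptors that relay growth factor signals to the PI3K-AKT and RAS-ERK pathways. Dasatinib also blocks ABL and the SRC family, while pazopanib was developed against the VEGF receptors. Loss of such signals is known to hold cells in G1, to lower the genes of DNA replication, mitosis and ribosome production, and to release FOXO and lysosomal gene programs from repression by AKT and mTOR. The values are log2 intensities of an Illumina expression array, so a difference of 1 is a change of signal by a factor of 2, and the median of every array was 6.67. Levels are compared between arrays for a probe, not between probes.

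The labelled cells were checked against marker genes. SMARCB1, the deleted gene, lay between 6.81 and 6.93 in the 4 arrays, close to the median of all probes. No probe among 12 markers of epithelial cells and 10 of endothelial cells had a level over 7.06 in these arrays, and 0 of them passed the test (1 higher and 0 lower at an unadjusted p under 0.05). Of 11 leukocyte markers, CD68 was bright, at 11.17 and 10.85 without drug and 11.08 and 10.94 with drug, and 0 passed the test. PDGFRA, the receptor both drugs target, was bright. Its level was 12.50 and 12.08 in the untreated arrays, 12.60 in dasatinib and 12.58 in pazopanib, a difference of 0.30 (SE 0.28, adjusted p = 0.680). A second PDGFRA probe read 11.11 and 11.08 without drug, 11.94 in dasatinib and 12.24 in pazopanib, a difference of 1.00 that did not pass the test either (adjusted p = 0.119). PDGFRB, KIT and CSF1R lay between 6.31 and 6.73 in the 4 arrays, in the dim range of the table. FGFR1 differed by 0.22 (adjusted p = 0.576). SRC, a dasatinib target, read 8.38 and 8.54 without drug against 8.92 and 9.08 with drug, a difference of 0.54 that missed the threshold (adjusted p = 0.231).

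The 2 untreated arrays stood further apart than the 2 drug arrays. Between dasatinib and pazopanib 15 probes differed by over 1 on the log2 scale, and between the untreated replicates 614 did. Untreated replicate 1 differed by over 1 from the pazopanib-resistant subline in 339 probes and from the dasatinib-resistant subline in 501, fewer than from untreated replicate 2. Untreated replicate 2 differed from the sunitinib-treated parental array in 439 probes, from dasatinib in 677 and from pazopanib in 1210, against 1395, 1261 and 1698 for replicate 1. One untreated array was thus the closer to the sublines and the other to the treated parental cells. Probes for ribosomal RNA moved with this split. A RNA28SN5 probe read 8.35 in untreated replicate 1 and 11.84 in replicate 2, against 12.55 and 12.44 in dasatinib and pazopanib, and an RNA18SN5 probe read 8.77 and 11.30 against 11.40 and 11.75. Of the probes called higher in the drug arrays, 66.4% were higher in untreated replicate 2 than in replicate 1, against 49.5% of all probes, and the part of this split in the results was not tested. The sources used here give no chip, batch or date for the arrays, and they do not say whether the replicates came from separate cultures, so that p-values measure only the spread between these arrays.

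In the limma fit 375 probes (267 named genes) were higher and 179 probes (155 named genes) lower in the dasatinib and pazopanib arrays at an adjusted p under 0.05. These are 0.780% and 0.372% of the probes tested. At an unadjusted p under 0.05 the counts were 3711 and 3596. In each probe called, both drug arrays lay on one side of both untreated arrays. That alone was common: 23.0% of all probes had both drug arrays above both untreated arrays and 23.5% had both below. A gap over 1 between the groups was seen in 193 probes above (0.401%) and 147 below (0.306%). The counts depended on which array was left out. Without pazopanib limma called 0 probes, with 2556 higher and 2107 lower at an unadjusted p under 0.05. Without dasatinib it called 43 higher and 5 lower, and without untreated replicate 1 it called 60 and 30.

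**Figure D1:**
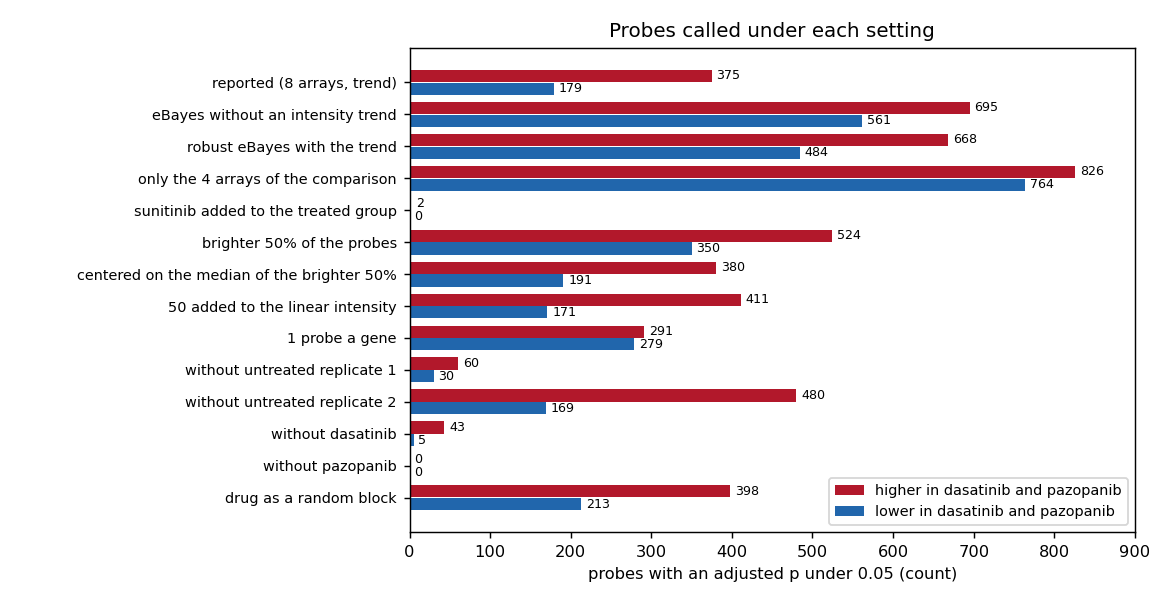
Number of probes with an adjusted p under 0.05 (x axis, count) under the reported fit and 13 other settings (y axis), with red bars for probes higher and blue bars for probes lower in dasatinib and pazopanib. The counts go from 0 without the pazopanib array to 826 higher and 764 lower when only the 4 arrays are fitted.

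The gene lists below count each gene by its brightest probe. The broadest pattern was a lower level of genes for cell division. Among 34 genes of G2 and mitosis 4 fell (CDC20, PTTG1, PLK1 and CDK1) and none rose; 28 had both drug arrays below both untreated arrays and 1 had both above, and the median change was -0.89. At 1 probe a gene, over all 20046 genes, 0.998% were called higher and 0.703% lower, 24.8% lay above and 27.3% below both untreated arrays, and the median change was -0.01. In RNA from whole cultures, fewer dividing cells and less RNA in each cannot be told apart. CDC20, the activator of the anaphase-promoting complex that ends metaphase, had a level of 13.21 and 13.07 without drug, 11.10 in dasatinib and 10.71 in pazopanib. The 4 arrays did not overlap, and the change was -2.23 (SE 0.29, a 4.71-fold lower signal, adjusted p = 0.00821). PTTG1, the securin that holds sister chromatids together until CDC20 acts, read 12.61 and 12.64 without drug against 11.50 and 11.15 with drug (change -1.30, adjusted p = 0.0364). PLK1, a kinase that drives mitotic entry and spindle assembly, read 8.41 and 8.63 against 7.62 and 7.19 (change -1.11, adjusted p = 0.0393). CDK1, the kinase of mitotic entry itself, read 11.31 and 10.73 against 9.85 and 9.50 (change -1.35, adjusted p = 0.0471). In each of these genes the pazopanib array was the lowest of the 4. NUSAP1, a spindle microtubule protein (change -1.16, adjusted p = 0.0505), CENPA, the centromeric histone (-1.14, adjusted p = 0.0527), PRC1, which bundles the central spindle (-1.03, adjusted p = 0.0645), and KIF2C, a microtubule-depolymerizing kinesin (-1.12, adjusted p = 0.0693), missed the threshold. The list count was not stable: without untreated replicate 1, without dasatinib or without pazopanib 0 of the 34 were called and 2 without untreated replicate 2, while the list median stayed between -1.11 and -0.62 whichever of the 4 arrays was left out.

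The promoters of the 4 mitotic genes that fell are shown because genes of this class are known to share 2 promoter elements, the cell cycle homology region (CHR), read by the MuvB complexes that silence these genes in resting cells, and the CCAAT box, bound by NF-Y. The sequences are RefSeq windows of 300 bases on GRCh38.p14, from 250 bases before the start of the gene to 50 bases after it. Capitals mark the letters TTTGAA or TTCGAA (CHR) and CCAAT on either strand, and in the PTTG1 window 2 CCAAT matches on opposite strands overlap.

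CDC20 (chr1:43358731-43359030, plus strand): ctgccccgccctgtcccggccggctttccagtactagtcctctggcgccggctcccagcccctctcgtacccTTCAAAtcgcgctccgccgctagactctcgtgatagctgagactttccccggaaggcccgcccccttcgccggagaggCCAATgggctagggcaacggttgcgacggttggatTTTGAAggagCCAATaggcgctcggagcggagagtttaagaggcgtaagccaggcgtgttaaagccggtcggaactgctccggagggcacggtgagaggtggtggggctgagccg

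PTTG1 (chr5:160421605-160421904, plus strand): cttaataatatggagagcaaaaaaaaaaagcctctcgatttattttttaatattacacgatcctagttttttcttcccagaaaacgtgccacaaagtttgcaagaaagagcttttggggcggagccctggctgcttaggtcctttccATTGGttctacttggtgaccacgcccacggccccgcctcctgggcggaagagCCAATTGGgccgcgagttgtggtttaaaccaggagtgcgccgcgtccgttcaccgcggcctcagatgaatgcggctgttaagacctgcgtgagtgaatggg

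PLK1 (chr16:23678639-23678938, plus strand): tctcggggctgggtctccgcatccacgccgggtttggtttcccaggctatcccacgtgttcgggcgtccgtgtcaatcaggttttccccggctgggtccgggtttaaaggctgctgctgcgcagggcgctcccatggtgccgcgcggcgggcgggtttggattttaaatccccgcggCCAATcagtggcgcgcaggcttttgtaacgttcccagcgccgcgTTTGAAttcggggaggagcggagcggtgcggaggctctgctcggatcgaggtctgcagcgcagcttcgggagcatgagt

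CDK1 (chr10:60778081-60778380, plus strand): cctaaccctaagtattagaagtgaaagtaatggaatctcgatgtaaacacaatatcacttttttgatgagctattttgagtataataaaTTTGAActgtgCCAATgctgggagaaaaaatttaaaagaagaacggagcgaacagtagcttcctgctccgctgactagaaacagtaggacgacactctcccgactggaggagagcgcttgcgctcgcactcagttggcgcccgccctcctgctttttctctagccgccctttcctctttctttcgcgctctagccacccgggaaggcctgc

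The CDC20 window held 2 CHR and 2 CCAAT matches, those of PLK1 and CDK1 1 of each, and that of PTTG1 3 CCAAT matches and no CHR letters. Of the 29 genes of the mitotic list with a promoter in the table, 65.5% held a CHR match and 82.8% a CCAAT match, against 16.6% and 35.7% of all 27305 promoters of the same length. Among the 133 genes called lower in the whole table that had a promoter, 13.5% held a CHR match and 38.3% a CCAAT match, close to the shares of all promoters. A match is a description of the letters in this window.

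Among 35 genes of S phase and DNA replication 1 fell, none rose, and 28 lay below both untreated arrays while 0 lay above. The median change was -0.66. POLA2, the B subunit of DNA polymerase alpha-primase, which starts each new DNA strand, read 10.30 and 10.24 without drug against 8.40 in dasatinib and 7.99 in pazopanib (change -2.08, SE 0.28, adjusted p = 0.00830). The drug arrays lay 1.84 below the lower untreated array. Next in order came subunits and loaders of the replicative helicase: GINS3 (change -1.27, adjusted p = 0.0527), CDC45 (-1.81, adjusted p = 0.0588), MCM7 (-1.42, adjusted p = 0.0592) and the licensing factor CDT1 (-1.31, adjusted p = 0.0599). None of these passed the test, and at an unadjusted p under 0.05 there were 20 lower and 0 higher members. Leaving out any array but untreated replicate 2 left 0 members called, with a list median from -0.78 to -0.53.

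Of 19 D and E cyclins, CDKs, CDK inhibitors and RB family genes 2 fell, and 0 were called when any 1 of the 4 arrays was left out. Of all genes 0.703% were called lower. In this list 10 lay below and 5 above both untreated arrays (27.3% and 24.8% of all genes did), with a median change of -0.20. At an unadjusted p under 0.05 there were 7 lower and 1 higher members. CCNE1, the cyclin that drives entry into S phase with CDK2, read 8.63 and 8.69 without drug against 7.77 and 7.49 (change -1.03, adjusted p = 0.0336). CCND3, a D cyclin that links growth factor signals to CDK4 and CDK6, read 11.47 and 11.28 against 10.24 and 10.09 (change -1.21, adjusted p = 0.0364). CCND1, the D cyclin best known as a target of receptor signaling, read 12.47 and 12.17 against 11.70 and 11.41, a difference of -0.76 that did not pass (adjusted p = 0.285). RBL2, an RB family protein of resting cells, pointed up without passing, at 8.57 and 8.32 against 9.14 and 9.80 (change 1.03, adjusted p = 0.0892). CDKN2D (-0.94, adjusted p = 0.0739), an inhibitor of CDK4 and CDK6, E2F2 (-1.37, adjusted p = 0.113), an activator of S phase genes, and the CDK inhibitor CDKN2A (-0.47, adjusted p = 0.182) were lower and did not pass.

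**Figure D2:**
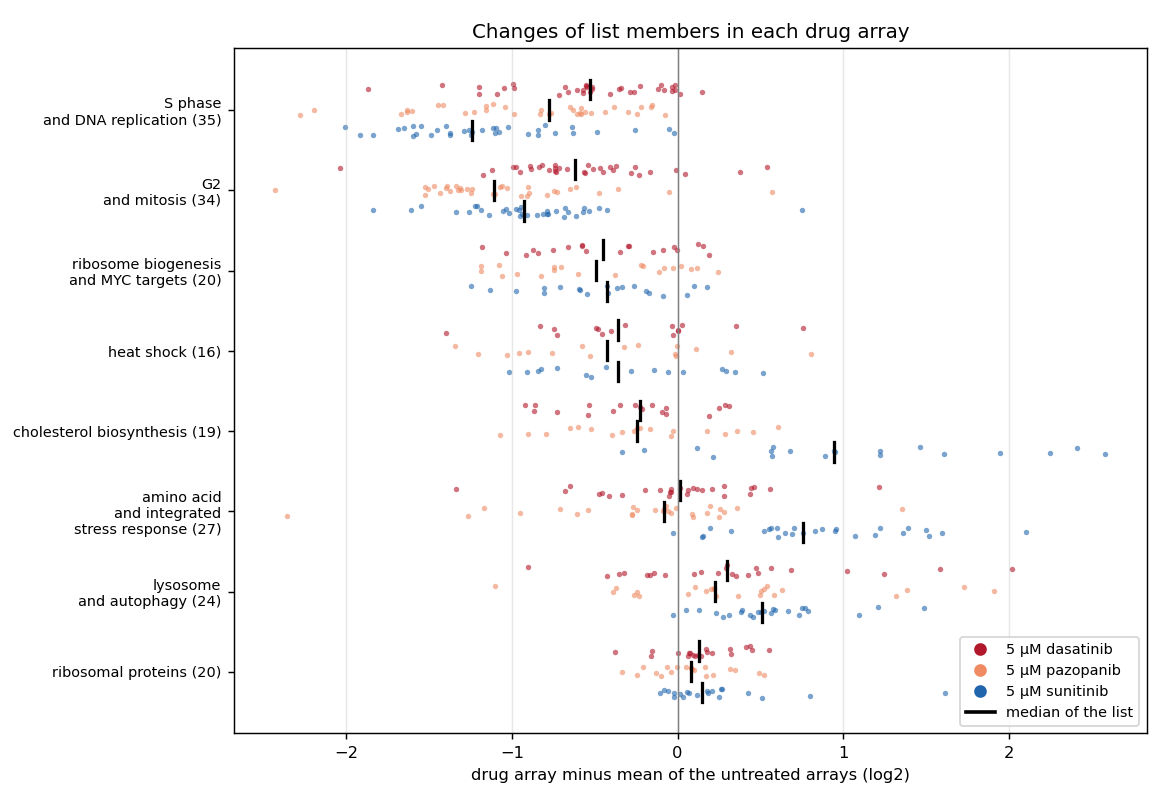
Change of each member of 8 gene lists in the dasatinib, pazopanib and sunitinib arrays (x axis, array minus the mean of the untreated arrays, log2), with the number of genes measured in brackets and a black bar at the list median. All 3 drugs share the untreated arrays; the medians of the mitotic list are -0.62 in dasatinib, -1.11 in pazopanib and -0.93 in sunitinib, while those of cholesterol biosynthesis are -0.23, -0.24 and 0.94.

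The 15 genes with the largest falls came from several processes. TEAD4, a transcription factor that recruits YAP and TAZ, read 10.26 and 10.47 without drug against 8.09 in dasatinib and 7.77 in pazopanib (change -2.44, SE 0.29, adjusted p = 0.00552). IRF1, an activator of interferon-inducible genes, read 10.48 and 10.94 against 8.65 and 8.45 (change -2.16, adjusted p = 0.00937), while sunitinib stood at 10.81, between the untreated arrays. ATF5, a stress-induced transcription factor, read 10.39 and 10.62 against 8.99 and 8.55, with 10.86 in sunitinib. A probe of RPS24, a ribosomal protein, read 11.56 and 12.61 against 10.34 and 10.21, with 12.65 in sunitinib. IRF1, ATF5 and this RPS24 probe were thus low in dasatinib and pazopanib but not in the sunitinib array. Among them were the mitochondrial genes TOMM40, the channel of the outer membrane translocase (12.19 and 12.43 against 10.49 and 10.16, change -1.99, adjusted p = 0.0132), and SLC25A22, a glutamate carrier (10.79 and 10.51 against 8.68 and 8.73, change -1.95, adjusted p = 0.00673). Also among them were TUBG1, the gamma-tubulin of microtubule-organizing centers (11.30 and 11.07 against 9.76 and 9.18, change -1.72, adjusted p = 0.0191), and RANGAP1, the GTPase-activating protein of Ran (10.72 and 10.95 against 9.49 and 8.85, change -1.66, adjusted p = 0.0195). The remaining genes were NACC2, a BTB-domain repressor (-2.02), RBPMS2, an RNA-binding protein (-1.83), RNF126, a ubiquitin ligase (-1.81), the RPS24 probe (-1.81), the endosomal protein TOM1L2 (-1.77) and cortexin CTXN1 (-1.69), with adjusted p from 0.00525 to 0.0415.

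Other probes of these genes did not always move with the probe named. Of the 15 genes 6 had other probes, 12 in all, of which 9 pointed the same way and 0 were called by limma. The second RNF126 probe read 7.53 and 7.88 without drug against 8.13 and 8.0 (change 0.36), the opposite direction, and 2 further TOM1L2 probes changed by 0.51 and 0.10. A brighter RPS24 probe changed by -0.20. Both other TEAD4 probes were dim, at 6.39 to 7.05. Over all 155 genes called lower, 43 of the 65 other probes brighter than SMARCB1 pointed down, 0 were called, and their median change was -0.20 against -1.17 for the probes called.

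The 15 genes with the largest rises were led by GRINA, LOC407835 and HMGA1. GRINA, a membrane protein of the TMBIM family that protects from cell death, read 8.18 and 8.93 without drug against 11.01 in dasatinib and 11.12 in pazopanib (change 2.51, SE 0.29, a 5.70-fold higher signal, adjusted p = 0.00548). HMGA1, an architectural chromatin protein of growing cells, read 9.28 and 9.68 against 11.82 and 11.90 (change 2.38, adjusted p = 0.0145). APLP1, a neuronal relative of the amyloid precursor protein, read 7.37 and 7.17 against 9.0 and 9.36 (change 1.91, adjusted p = 0.00374), and CACNA1A, the pore of P/Q-type calcium channels, 7.45 and 8.03 against 9.58 and 9.83 (change 1.97, adjusted p = 0.00507). Each of these last 2 genes had a second probe that also rose, APLP1 by 1.32 (adjusted p = 0.0222) and CACNA1A by 0.82 (adjusted p = 0.00552). SSBP3, which joins LDB1 in transcription complexes, had the smallest p of all probes, at 7.20 and 7.34 against 9.14 and 9.22 (change 1.91, adjusted p = 0.00374). PPDPF read 8.07 and 8.38 against 10.61 and 10.40 (change 2.28, adjusted p = 0.00374). S100A1, a calcium-binding protein, read 9.06 and 10.30 against 11.62 and 11.98, so that its untreated arrays differed by more than its drug arrays (change 2.12, adjusted p = 0.0261). MXRA8, a cell surface adhesion protein, was lower in dasatinib (9.05) than in pazopanib (9.87) and read 7.16 and 7.73 without drug (change 2.02, adjusted p = 0.0104). CERCAM (2.09), the zinc finger gene ZNF580 (2.09), the transcribed pseudogene LOC407835 (2.43) and GRN, the precursor of progranulin (1.89), had adjusted p from 0.00552 to 0.0191. Some names are uncertain because near-identical copies share sequence: GSTM2 (2.23), a glutathione transferase beside GSTM1, NPIPB5 (1.98), a member of a large duplicated family, and SNORD3D (1.90), a copy of the U3 small nucleolar RNA.

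Here too the second probes were weaker. Of the 15 genes 10 had other probes, 12 in all, which all pointed up, and 2 were called. GRINA's other probe, at 9.49 and 9.92 without drug, changed by 0.53 (adjusted p = 0.370). GRN's changed by 0.27, a brighter GSTM2 probe at 12.33 and 12.01 by 0.34, and both other HMGA1 probes were dim. The other LOC407835 probe was dim too and changed by 0.10. Over all 267 genes called higher, 105 of the 125 other probes brighter than SMARCB1 pointed up, 16 were called, and their median change was 0.45 against 1.08 for the probes called. All 15 genes lost the call without pazopanib, 9 without dasatinib, 6 without untreated replicate 1 and 1 without untreated replicate 2, and of the 15 lowest genes 15, 15, 9 and 6 did.

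**Figure D3:**
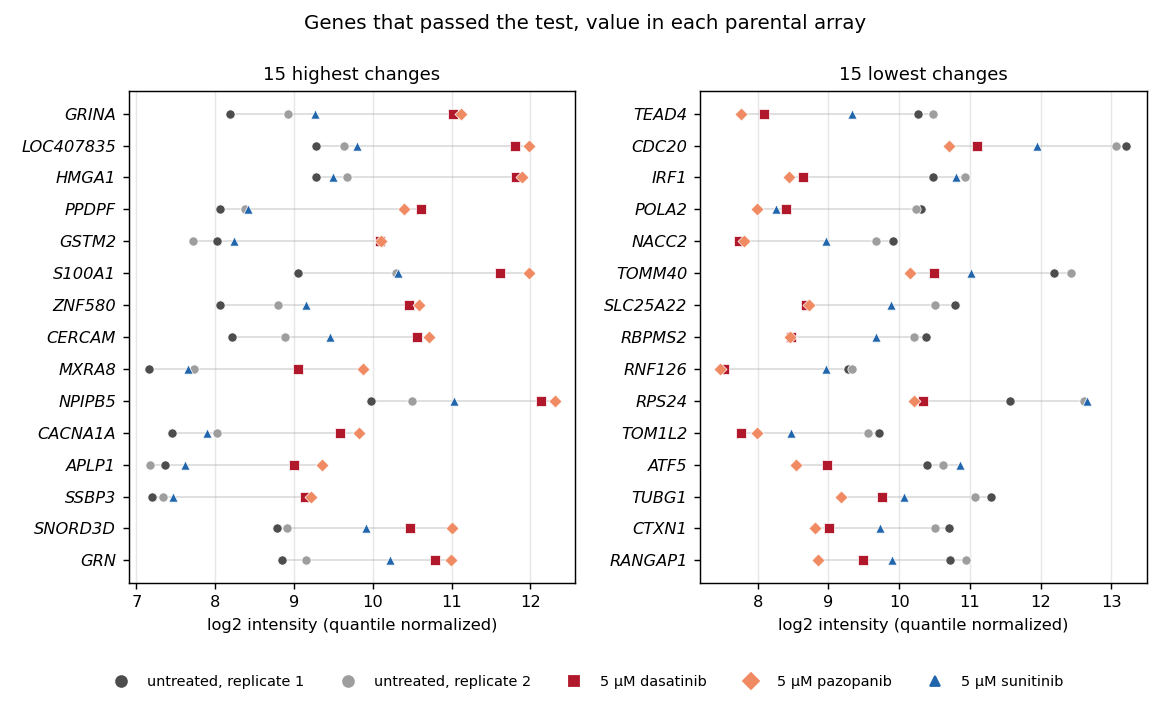
Level of the 15 highest and the 15 lowest genes (y axis) in the untreated, dasatinib, pazopanib and sunitinib arrays of parental cells (x axis, log2 intensity), 1 point an array. Only genes whose dasatinib and pazopanib arrays did not overlap the untreated arrays were eligible, so that separation follows from the choice. The sunitinib array lies on the untreated side of both drug arrays in all genes but POLA2.

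Growth and stress programs were tested by the same count. Over all genes 0.703% were called lower, and 24.8% lay above and 27.3% below both untreated arrays. Of 20 genes of ribosome biogenesis and MYC targets 1 fell, 14 lay below both untreated arrays and 1 above, with a median of -0.48. PES1, a factor of the PeBoW complex that processes the RNA of the large ribosomal subunit, read 9.26 and 9.28 without drug against 8.09 and 8.08 (change -1.18, adjusted p = 0.0469), and its partner BOP1 was lower without passing (change -1.06, adjusted p = 0.0980). Leaving out any 1 of the 4 arrays left 0 members called. The ribosomal protein genes themselves had 0 of 20 called, with 2 higher and 2 lower at an unadjusted p under 0.05, and a median of 0.09. Of 16 heat shock genes 1 fell, 9 lay below both untreated arrays and 2 above, with a median of -0.35. At an unadjusted p under 0.05 there were 7 lower and 1 higher members. HSP90AA1, the inducible cytosolic chaperone, fell from 13.97 and 13.69 to 13.10 and 12.93 (change -0.82, adjusted p = 0.0262). Its constitutive relative HSP90AB1 read 12.11 and 12.47 against 13.05 and 13.09 (change 0.78, adjusted p = 0.0620). In the unfolded protein response 0 of 15 were called (2 higher and 5 lower at an unadjusted p under 0.05); MANF, a secreted factor of the endoplasmic reticulum, changed by -1.36 (adjusted p = 0.0620). H2AZ1, a replication-independent histone variant, fell by 1.00 on the log2 scale (adjusted p = 0.0262) as the only one of 13 histone genes. With 1 of the 4 arrays left out, HSP90AA1 kept its call only without untreated replicate 2, and H2AZ1 only without dasatinib.

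Metabolic genes are given beside their sunitinib values. In the list of cholesterol biosynthesis 0 of 19 were called (0 higher and 3 lower at an unadjusted p under 0.05). In dasatinib and pazopanib 13 lay below both untreated arrays, where 27.3% of all genes did. In the 1 sunitinib array 17 lay above both. A count from 1 array is looser than one from 2, and its share over all genes was not computed. INSIG1, a feedback regulator of sterol synthesis, had a level of 9.27 and 9.08 without drug, 8.26 in dasatinib and 8.38 in pazopanib, and 11.12 in sunitinib. In the amino acid and integrated stress response 0 of 27 were called (1 higher and 5 lower at an unadjusted p under 0.05), with a median of 0.02 in dasatinib, -0.08 in pazopanib and 0.76 in sunitinib. ASNS, asparagine synthetase and an ATF4 target, read 10.15 and 10.05 without drug against 9.65 and 8.94, and 12.21 in sunitinib. SLC7A5, the large neutral amino acid transporter, read 10.28 and 10.32 against 8.97 and 7.95, and 11.26 in sunitinib (change in dasatinib and pazopanib -1.85, adjusted p = 0.0732). CTH, which pointed up, had the smallest adjusted p of this list in dasatinib and pazopanib and missed the threshold (adjusted p = 0.0552). Among the brighter 50% of probes 1 member was called higher and 0 lower. INSIG1 and ASNS were not among the members of their lists with the smallest p. With 1 sunitinib array there was no test of the differences from sunitinib.

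Lysosomal genes lay above the untreated arrays more often than below them. Of 24 genes of the lysosome and autophagy 1 rose (0.998% of all genes did). In dasatinib and pazopanib 15 lay above both untreated arrays and 6 below, against 24.8% and 27.3% of all genes. The median change was 0.29, with 0.30 in dasatinib and 0.23 in pazopanib. In the 1 sunitinib array 22 lay above both untreated arrays and 0 below, with a median of 0.51. A count from 1 array is looser than one from 2. GAA, the lysosomal alpha-glucosidase that degrades glycogen, read 7.72 and 8.28 without drug against 9.25 in dasatinib and 9.73 in pazopanib (change 1.49, SE 0.25, adjusted p = 0.0214). The protease CTSD read 8.18 and 8.33 against 10.28 and 10.17, a difference of 1.96 with a gap of 1.84 between the groups that did not pass the test (adjusted p = 0.0803). CTSA (change 1.48, adjusted p = 0.0600) and TPP1 (1.17, adjusted p = 0.245), further lysosomal proteases, were placed alike, while HEXA changed by 0.46 (adjusted p = 0.320). Without untreated replicate 1, dasatinib or pazopanib no member was called, with medians of 0.21, 0.23 and 0.30. The GAA promoter is shown because TFEB, the lysosomal transcription factor held in the cytoplasm by mTOR, is known to bind E-boxes of this kind. Capitals mark TCACGTGA, which reads the same on both strands and is held by 1.04% of all 27305 promoters.

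GAA (chr17:80101331-80101630, plus strand): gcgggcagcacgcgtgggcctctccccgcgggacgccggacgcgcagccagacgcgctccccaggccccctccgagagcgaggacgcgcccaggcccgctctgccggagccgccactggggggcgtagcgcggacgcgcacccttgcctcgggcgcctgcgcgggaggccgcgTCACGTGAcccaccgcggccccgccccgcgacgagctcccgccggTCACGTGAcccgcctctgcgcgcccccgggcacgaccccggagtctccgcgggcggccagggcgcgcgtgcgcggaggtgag

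The window held 2 matches.

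Extracellular matrix and surface genes held a few further calls. Of 32 matrix genes 2 rose, where 0.998% of all genes did: COL9A2, a chain of the cartilage collagen IX, from 8.19 and 8.29 to 9.34 and 9.86 (change 1.36, adjusted p = 0.0224), and COL6A2, a chain of the microfibrillar collagen VI, from 7.28 and 7.97 to 8.91 and 9.16 (change 1.41, adjusted p = 0.0245). COL6A1, its partner chain, read 8.70 and 9.49 against 10.55 and 10.65 (change 1.50, adjusted p = 0.0981). The median of the matrix list was 0.01, and 1 of its genes was called without untreated replicate 2 and 0 when any other of the 4 arrays was left out. Of 19 neural lineage genes 2 rose, CDH19 and SYP. CDH19, a cadherin of Schwann cell precursors, read 8.75 and 8.79 against 9.81 and 10.37 (change 1.32, adjusted p = 0.0220). SYP, the synaptic vesicle protein synaptophysin, read 6.63 and 6.60 against 7.08 and 7.29 (change 0.57, adjusted p = 0.0324). Without drug SYP was dim, below the array median of 6.67. The median of the neural list was 0.11, and 10 of its genes lay above both untreated arrays (24.8% of all genes did). When any 1 of the 4 arrays was left out, 0 neural genes were called.

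Survival, interferon and immediate early genes held 1 call each, all higher, where 0.998% of all genes were called higher. BMF, a BH3-only protein that promotes apoptosis by binding BCL2 relatives, read 6.93 and 6.61 without drug against 7.98 and 8.35 (change 1.39, SE 0.19, adjusted p = 0.00821), and it was the only one of 16 BCL2 family genes to pass. It lost the call without pazopanib and kept it without each of the other 3 arrays. HLA-C, a class I antigen-presenting chain, read 8.47 and 8.59 against 9.61 and 9.67 (change 1.11, adjusted p = 0.0426) among 21 interferon genes. JUNB, an AP-1 subunit on the lists of ERK output and of TGF-beta targets, read 6.74 and 6.87 against 7.60 and 7.92 (change 0.96, adjusted p = 0.0289). HLA-C and JUNB lost their calls when any 1 of the 4 arrays was left out. Other genes of ERK output did not pass: DUSP6, the phosphatase that reports ERK activity, changed by -0.27 (adjusted p = 0.271) from a dim level. Of 21 FOXO targets 0 were called (4 higher and 1 lower at an unadjusted p under 0.05); BCL6, PIK3IP1, SESN1 and CCNG2, genes that FOXO factors are known to induce, changed by 0.56, 0.41, 0.82 and 0.76 with adjusted p from 0.106 to 0.187, and a dimmer CCNG2 probe rose by 0.73 (adjusted p = 0.0302). Other members of the FOXO list pointed down, such as ERBB3 (change -0.44, adjusted p = 0.209) and KLF6 (-0.49, adjusted p = 0.330). The median of this list was 0.06, with 11 genes above and 7 below both untreated arrays (24.8% and 27.3% of all genes lay there). Of 18 p53 targets 0 were called, with 2 higher and 2 lower at an unadjusted p under 0.05. In 8 further lists (fatty acid synthesis, NRF2, AHR and YAP targets, hypoxia and glycolysis, SRF targets, mitochondrial respiration and the myogenic lineage) limma called 0 genes, with medians from -0.23 for hypoxia to -0.02 for NRF2 targets. Mitochondrial respiration had 0 higher and 6 lower of 21 genes at an unadjusted p under 0.05, and SRF targets with the actin cytoskeleton had 3 higher and 6 lower of 18.

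The kinase receptors themselves showed no call. Of 29 receptor tyrosine kinases 0 passed (4 higher and 1 lower at an unadjusted p under 0.05), with 14 above and 8 below both untreated arrays, where 24.8% and 27.3% of all genes lay. EPHB4, an ephrin receptor, read 9.72 and 9.83 without drug against 10.99 and 10.77 (change 1.11, adjusted p = 0.0651). ERBB3, also on the FOXO list, had the next smallest p and was lower (change -0.44, adjusted p = 0.209). AXL, a TAM family receptor, read 8.15 and 8.12 against 9.25 and 9.41 (change 1.20, adjusted p = 0.245). The median change of the receptor list was 0.06. Of 16 SRC family and adhesion genes 0 passed, with 1 higher and 0 lower at an unadjusted p under 0.05.

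Dasatinib and pazopanib were given at the same dose of 5 µM, and their arrays were set side by side with no test, since each drug had 1 array. Of the 15 probes that differed by over 1, 9 were higher in dasatinib and 6 in pazopanib, and no probe lay over 1 above both untreated arrays in 1 drug and over 1 below both in the other. EGR1, an immediate early gene, had the largest difference: 9.33 in dasatinib, 7.97 in pazopanib, and 8.58 and 8.49 without drug. FOS, another immediate early gene, read 8.73 in dasatinib and 7.71 in pazopanib against 7.49 and 7.17, with 8.97 in sunitinib. TK1, the S phase thymidine kinase, read 10.49 in dasatinib, inside the untreated range of 10.38 to 10.76, and 9.46 in pazopanib. FAM107A, S100A9, CALY and AIF1L were also higher in dasatinib, by 1.01 to 1.17. In the other direction FGFR3, a fibroblast growth factor receptor, read 8.57 in dasatinib and 9.63 in pazopanib against 9.94 and 9.89 without drug. KLF4, a transcription factor of quiescent cells, read 7.42 in dasatinib and 8.39 in pazopanib against 7.51 and 7.16, and 9.36 in sunitinib. MST1, the histone H2AC19, ICAM5, AMY2B, ID2 and KLF2 were higher in pazopanib by 0.87 to 1.02. The cell division lists separated the drugs too: 33 of 34 mitotic genes and 31 of 35 S phase genes were lower in pazopanib than in dasatinib, with a median pazopanib minus dasatinib of -0.44 and -0.41, while over all probes pazopanib was the lower in 49.7%.

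**Figure D4:**
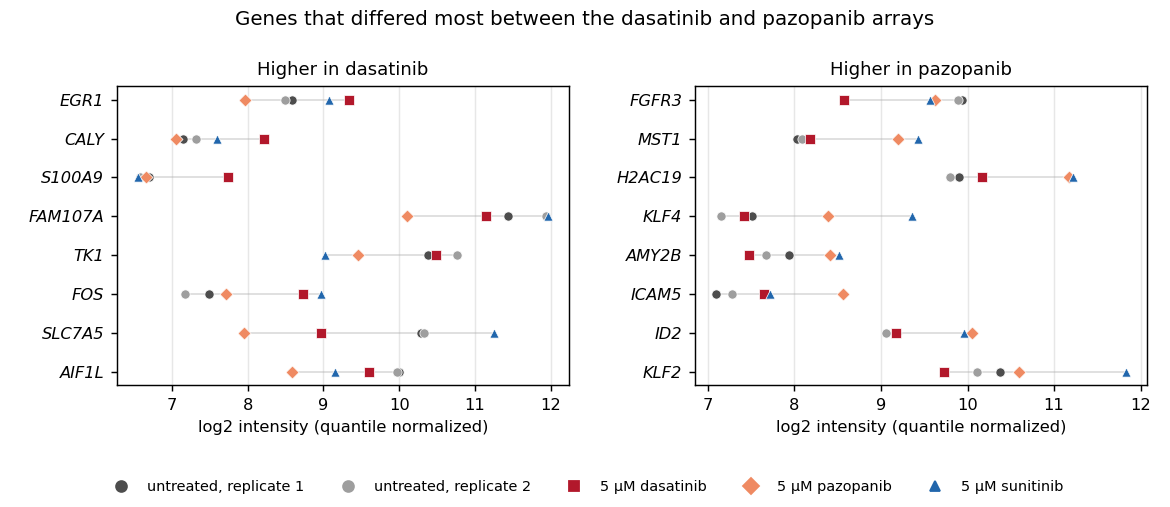
Level of the 8 genes highest in dasatinib over pazopanib and the 8 highest in pazopanib over dasatinib (y axis) in 5 arrays of parental cells (x axis, log2 intensity), 1 point an array. EGR1 is at 9.33 in dasatinib and 7.97 in pazopanib, on either side of the untreated arrays at 8.58 and 8.49.

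The 15 highest and the 15 lowest genes, chosen for their change in dasatinib and pazopanib, were also read in the other 4 arrays. All 3 resistant sublines, each in 5 µM of its drug, were below both drug-treated parental arrays for 15 of the 15 highest genes and above them for 15 of the 15 lowest. Choosing genes as extremes of the dasatinib and pazopanib arrays favors such counts, and the sublines also entered the fit. The share over all genes was not computed. CDC20 read 12.96, 12.56 and 11.92 in the dasatinib-, pazopanib- and sunitinib-resistant sublines, against 11.10 and 10.71 in the dasatinib- and pazopanib-treated parental arrays. GRINA read 8.37, 8.42 and 8.78 in the sublines, inside the untreated range of 8.18 to 8.93. Some genes lay nearer to the dasatinib- and pazopanib-treated parental arrays than to the untreated arrays. In the sunitinib-resistant subline these included HMGA1, at 11.17 (11.82 and 11.90 against 9.28 and 9.68), GRN, NACC2, CDC20, POLA2 and RPS24. In the sunitinib-treated parental array they included TOMM40, at 11.01, POLA2, CDC20, TUBG1, TOM1L2, RANGAP1, GRN and SNORD3D. The sunitinib-treated parental array lay above both untreated arrays for 12 of the 15 highest genes and below both for 12 of the 15 lowest, with median changes of 0.37 and -0.87 against 2.09 and -1.83 in dasatinib and pazopanib. Sunitinib was thus on the same side with smaller changes for most of these genes. These genes were chosen on the other 2 drugs, which share their untreated arrays with sunitinib. The cell division lists did not show smaller changes throughout. The S phase median was -1.24 in sunitinib against -0.53 in dasatinib and -0.78 in pazopanib. The mitotic median was -0.93 in sunitinib against -0.62 in dasatinib and -1.11 in pazopanib.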

How the data were processed

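Total RNA of A204 cells was hybridized to Illumina HumanHT-12 arrays. The deposited table holds log2 intensity, which the authors preprocessed with beadarray and quantile normalized, so that there is no read depth and precision is limited by how many arrays there are. Background treatment and detection are not given in the sources used here. Probes with exactly 1 symbol in the platform annotation were named (30113 of 48107, 20046 genes). Each probe was tested in R 4.3.3 with limma 3.58.1 (lmFit on 8 arrays in 4 groups, eBayes with an intensity trend, Benjamini-Hochberg over all probes, threshold 0.05), after a check on simulated data. The group of dasatinib and pazopanib joins 2 drugs, 1 array each. Named genes are PDGFRA, PDGFRB, KIT, CSF1R, FGFR1, SRC, SMARCB1, the 15 highest and 15 lowest called genes by their most changed probe, every called list member with up to 4 others by p, and the 8 genes highest in either drug over the other. INSIG1 and ASNS were named beyond this rule. In 32 lists 611 of 648 entries were measured, by the brightest probe. The genes, lists and comparison were chosen with earlier results of these data known. Promoters are from RefSeq (GRCh38.p14). Alternatives changed the eBayes step, arrays, dim probes, centering, background, probes of a gene, drug block and test.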

Additional observations from a re-analysis of the deposited data

How the results depend on the processing

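The numbers of probes called higher and lower (375 and 179) depended on how limma estimated the spread: they were 695 and 561 without the intensity trend, 668 and 484 with robust estimation, and 826 and 764 with only the 4 arrays, where 51.9% of the calls were higher against 67.7%. With sunitinib added to the treated group 2 and 0 were called (2975 and 2987 at an unadjusted p under 0.05). Among the brighter 50% of probes 350 were called lower, and with 1 probe a gene 279. Leaving out 1 array gave 0 to 480 higher and 0 to 169 lower. The Student's t-test, which the study states for its figures in general, gave 2524 higher and 2816 lower unadjusted, and 0 and 0 after Benjamini-Hochberg. For its expression arrays the study instead ranked genes by a signal-to-noise score. Centering, an added intensity of 50 and a random drug block kept both counts within 1.5 times. Among brighter probes 6556 lay above and 7072 below both untreated arrays. Against untreated replicate 1 alone both drugs were over 1 higher in 638 probes and over 1 lower in 391, and against replicate 2 alone in 318 and 269. With 50 added to the intensity 5 probes differed by over 1 between the drugs. The causes were not tested. No gene named and no list reversed a called direction. Of the alternatives for the 15 highest and 15 lowest genes 276 kept the call and 108 lost it. No paired analysis was possible because the treated arrays carry no replicate number in the labels.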

Other observations

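Some genes outside the lists were read because they belong to processes described above, and all of them were chosen after their values were seen. PDGFB, which codes for a ligand of the PDGF receptors that both drugs block, rose at 1 of its 3 probes, from 7.31 and 7.36 without drug to 8.29 in dasatinib and 8.51 in pazopanib (change 1.06, limma adjusted p = 0.0264), with 7.29 in sunitinib. A second PDGFB probe changed by 1.34 (adjusted p = 0.0552), and the third was dim and changed by 0.07. LTBP4, which holds latent TGF-beta in the matrix, rose by 0.96 (adjusted p = 0.00443) and TGFB3, a TGF-beta ligand, by 1.54 (adjusted p = 0.0309). The large basement membrane proteoglycans agrin, AGRN (8.20 and 8.87 against 10.40 and 10.30), and perlecan, HSPG2 (6.71 and 6.75 against 7.69 and 8.07), rose by 1.82 and 1.15 (adjusted p = 0.0132 and 0.00984), and a dim second AGRN probe changed by -0.08. More lysosomal enzymes rose, CTSF by 1.56 (adjusted p = 0.0103) and ARSA by 1.14 (adjusted p = 0.0193), while a second ARSA probe changed by -0.28.

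Single genes outside the lists were also lower in both drugs. TUBA1C, an alpha-tubulin, read 13.80 and 13.72 without drug against 12.33 and 11.96 (change -1.62, adjusted p = 0.00374), and a second TUBA1C probe changed by -0.40 (adjusted p = 0.506); tubulin genes are close copies whose probes can share transcripts. The proteasome genes PSMD8 and PSMC3 fell by 1.63 and 1.33 on the log2 scale (adjusted p = 0.0150 and 0.0268). DNMT1, the maintenance DNA methyltransferase of dividing cells, read 13.02 and 12.48 against 11.60 and 11.32 (change -1.29, adjusted p = 0.0354), and BRCA1, a DNA repair gene with replication-linked expression, fell by 1.11 on the log2 scale at 1 probe (adjusted p = 0.0426), with -1.02 at the other (adjusted p = 0.0660).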
